A study of Mus musculus with 3 samples.

Results

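Basophils and mast cells made up 63 of the 9002 cells that passed the cell filter in 3 single-cell libraries. They were 18 of 1840 cells of the bone marrow, 33 of 2184 cells of the blood, and 12 of 4978 cells of the injured tendon. They were chosen by their counts: a member held at least 5 unique molecular identifiers (UMIs, each counted as 1 captured RNA molecule) of *Mcpt8*, *Prss34*, *Ms4a2*, and *Cpa3* together, with at least 2 of these 4 genes detected. In a member, the neutrophil granule genes *Elane*, *Mpo*, *Prtn3*, and *Ctsg* took less than 1% of the UMIs, and *S100a8* and *S100a9* less than 5%. The levels of these 10 genes in members against other cells are therefore a description of the choice.

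The mice were male C57BL/6J, 10 weeks old, and all 3 libraries were taken on day 3 after the same injury, a burn of the back combined with cutting of the Achilles tendon, which leads to heterotopic ossification (bone in soft tissue). Marrow was flushed from the femurs, blood was the mononucleated layer of a density gradient, and the tendon was digested with enzymes. There was 1 library per site and no uninjured library, and how many mice went into each is not stated by the labels or methods read here. Site, preparation, and library thus cannot be told apart, no test was possible, and the intervals given here are 95% intervals that cover counting error only.

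Basophils and mast cells are granulocytes that carry the high-affinity receptor for IgE, of which *Fcer1a* encodes the α and *Ms4a2* the β chain, and that store histamine and proteases in granules. Basophils finish their maturation in the marrow and then circulate, whereas mast cells leave the marrow as progenitors and mature in tissues. Their protease genes tell them apart: *Mcpt8* and *Prss34* belong to basophils, and *Cma1* and *Mcpt4* (chymases) and *Tpsb2* and *Tpsab1* (tryptases) to mast cells of connective tissue, while *Cpa3*, a carboxypeptidase, occurs in both. The transcription factor GATA2, encoded by *Gata2*, is required by both lineages, and GATA factors bind DNA with the core GATA.

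Of the 4 choosing genes, 3 carried a GATA string close to their start, and the last 100 bases before the start are shown for them and for *Cd200r3*, a receptor of basophils and mast cells that is used below to group the members. The strings searched were AGATAA and TGATAA on both strands, which read TTATCT and TTATCA on the other strand, and the matches are in capitals. The sequences are from RefSeq on GRCm38.p6, each written 5′ to 3′ on the strand of the gene. *Ms4a2* (minus strand, chr19:11623720-11623819) had its strings 37 and 11 bases before the start, *Cpa3* (minus strand, chr3:20242182-20242281) 46, *Prss34* (plus strand, chr17:25298294-25298393) 31, and *Cd200r3* (plus strand, chr16:44943578-44943677) 39.
Ms4a2: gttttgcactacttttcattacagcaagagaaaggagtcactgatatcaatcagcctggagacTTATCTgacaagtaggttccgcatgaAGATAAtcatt
Cpa3: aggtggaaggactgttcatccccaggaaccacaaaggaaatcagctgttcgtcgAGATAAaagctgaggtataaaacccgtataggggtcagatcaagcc
Prss34: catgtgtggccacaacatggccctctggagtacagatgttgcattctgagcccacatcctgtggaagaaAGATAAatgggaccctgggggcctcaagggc
Cd200r3: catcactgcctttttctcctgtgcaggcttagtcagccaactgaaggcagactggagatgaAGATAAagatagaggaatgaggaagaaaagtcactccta
Such a string lay in these last 100 bases in 6.17% of 32851 RefSeq promoters and in the last 250 bases in 16.6%. *Mcpt8* had none in either window. Of the 15 genes outside the rule that led members over other cells in all 3 libraries, 12 were matched, and 4 of them had a string in the last 100 bases (*Fcer1a*, *Cd200r3*, *Sytl3*, and, at 1 of its starts, *Il1rl1*). *Cyp11a1*, *Gata2*, *Kit*, *Hgf*, and *Ccl3* had none there, nor had the mast cell genes *Cma1*, *Mcpt4*, and *Mrgprb1*. A match is a description of the letters and not a binding site.

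The bone marrow library held 49580625 UMIs in 1855 barcodes (median 22836 per barcode), the blood library 22542581 in 2241 (median 8316), and the tendon library 90621052 in 5629 (median 11082). Members were shallower than the median barcode of their library, with a median depth of 13782.5 UMIs for bone marrow (5160 to 43922), 6932 for blood (2022 to 13259), and 4915 for the tendon (1485 to 65840). Their share of the cells was 0.978% for bone marrow (Clopper-Pearson interval 0.581 to 1.54), 1.51% for blood (1.04 to 2.12), and 0.241% for the tendon (0.125 to 0.421). The need for 2 detected genes left out 4 bone marrow, 1 blood, and 2 tendon cells that held 5 or more UMIs of 1 choosing gene. The minimum of 5 UMIs cut through few cells. Just inside it lay 3 blood cells with 6 UMIs of the choosing genes and 1 cell with 7 in each of blood and bone marrow, and just outside it lay 1 blood cell with 4 and 1 tendon cell with 3. The limits on neutrophil genes removed 2 bone marrow cells, of which 1 had 23.3% of its UMIs in *S100a8* and *S100a9* and the other 1.18% in the granule genes. Between libraries 2, 1, and 6 barcodes were shared, and none of them belonged to a member.

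The mix of basophil and mast cell genes differed between the sites. A member with more UMIs of the 6 mast cell genes *Cma1*, *Mcpt4*, *Tpsb2*, *Tpsab1*, *Mrgprb1*, and *Mrgprb2* than of *Mcpt8* and *Prss34* was counted as mast-leaning and every other member as basophil-leaning. By this count 0 of 18 bone marrow members, 2 of 33 blood members, and 6 of 12 tendon members were mast-leaning. In the tendon the split was wide. The 6 mast-leaning cells held 148, 181, 352, 399, 635, and 918 UMIs of the 6 mast cell genes, and the 6 basophil-leaning cells held 0. *Mcpt8* ran the other way, with 0 UMIs in each mast-leaning cell and 5, 6, 14, 15, 18, and 21 in the basophil-leaning ones. Mast cell and basophil genes were thus both present at the injury site but in different cells, except that 2 mast-leaning cells also held *Prss34* (1 and 18 UMIs). Because mast cell genes define the leaning, their levels between the leanings are a description.

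**Figure D1:**
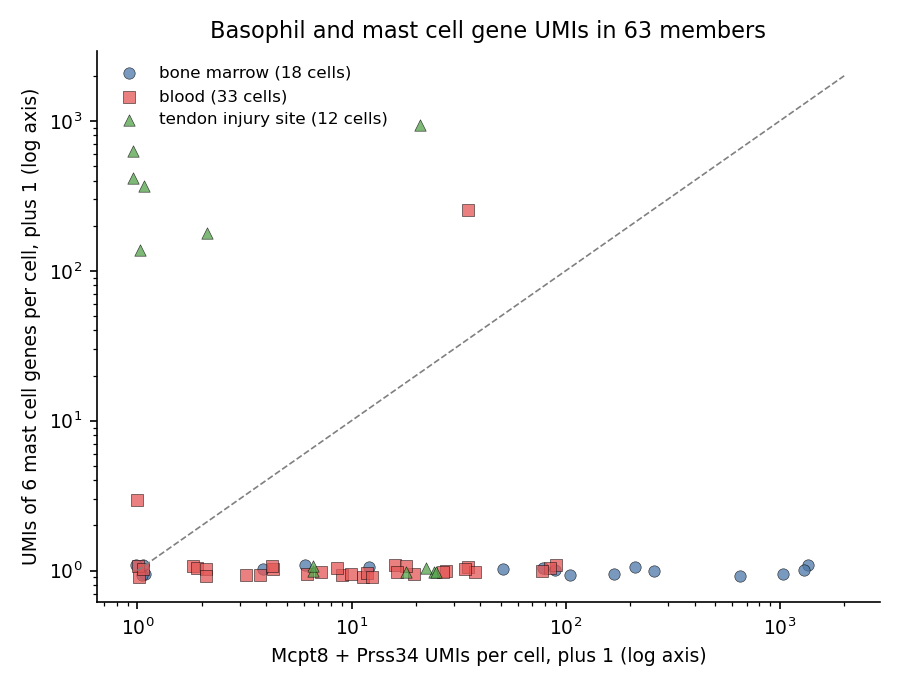
UMIs of *Mcpt8* and *Prss34* (horizontal, plus 1, log axis) and of 6 mast cell genes (vertical, plus 1, log axis) in each of the 63 members, colored by site, with points jittered by up to 10% and a dashed line of equal counts. The 6 mast-leaning tendon cells sit at the upper left with 148 to 918 mast cell gene UMIs, and bone marrow members lie along the bottom.

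Most members carried genes of the label that the rule did not use, but the label was less clear for some. In bone marrow, 6 of the 18 members held no *Cd200r3* and carried progenitor genes, and they are described below. *Gata2*, which the rule did not use, had a UMI in 17 of 18, 32 of 33, and 11 of 12 members, and *Cyp11a1*, which encodes an enzyme of steroid synthesis, in 15, 32, and 12. *Fcer1a* had a UMI in 10, 31, and 10 members. Among the lymphocytes, which should lack these genes, *Gata2* had a UMI in 0 of 73, 0 of 1093, and 0 of 26 cells, which allows shares of up to 4.11%, 0.274%, and 11.5%, and *Cyp11a1* and *Fcer1a* each had a UMI in 1 blood lymphocyte (0.0915%), at median depths of 6890, 7866, and 3366.5 UMIs. None of *Mcpt8*, *Prss34*, and the 6 mast cell genes was detected in 4 bone marrow and 3 blood members, which were counted as basophil-leaning for want of mast cell genes. Of these 7, 3 held *Cd200r3*. Both mast-leaning blood cells differed from the tendon ones. The first, with 8691 UMIs, held 153 of *Cma1*, 82 of *Tpsb2*, 217 of *Cpa3*, 32 of *Kit* (the receptor of stem cell factor), and 4 of the progenitor gene *Cd34*, together with 34 of *Mcpt8* and 108 of *Gzmb* (granzyme B). It therefore carried genes of both cells and all 82 *Tpsb2* UMIs of the blood library. The second, with 11408 UMIs, held 2 UMIs of *Cma1* and none of *Mcpt8* or *Prss34*. With 108 UMIs of *Gzma*, 46 of *Ccl5*, and 18 of *Nkg7*, genes of cytotoxic lymphocytes, its name as mast-leaning was not borne out. This cell held 6 UMIs of *Ms4a2*, 3 of *Cpa3*, 3 of *Gata2*, 7 of *Cyp11a1*, and 13 of *Hdc* as well. It was also the 1 blood member among the 38 cells with the highest doublet scores of its library, and in bone marrow the deepest member, with 43922 UMIs, was among the 27.

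Of the tendon members, 2 stood apart, and several results that change with them are given with and without them. The deepest member held 65840 UMIs, which was 48.4% of all UMIs of the tendon members and 75.2% of those of the basophil-leaning tendon cells. It carried 8 UMIs of the choosing genes and 1.85% of its UMIs in 7 mesenchymal markers (262 of *Col1a1*), while the other 11 tendon members held 7 mesenchymal UMIs between them. A mast-leaning cell of 23110 UMIs carried 4.92% of its UMIs in 12 monocyte and macrophage markers, with 320 of *Lyz2* and 40 of *C1qa*. Pooled over all 12 tendon members, both sets of markers were higher than in blood. At least 4-fold higher in the tendon were 6 of 6 mesenchymal markers and 7 of 7 monocyte and macrophage markers that had at least 20 UMIs over both groups, with median log2 ratios of 6.93 and 4.57 against -0.09 over all 2755 genes tested. In that contrast of all members, 9.98% of the genes were at least 4-fold higher and 10.4% at least 4-fold lower. The levels that follow therefore compare a narrower group: the basophil-leaning members with at least 1 *Cd200r3* UMI, without the deepest tendon cell. These were 12 cells of the marrow, 30 of the blood, and 5 of the tendon, a group formed after the values had been seen. Levels are counts per 1000000 UMIs (CPM), the UMIs of a gene over all UMIs of the group.

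The 18 bone marrow members fell into 12 with *Cd200r3* and 6 without, and the 6 carried progenitor genes. The 6 were deeper, with a median of 20057 UMIs against 9859, and 1 of them was the deepest bone marrow member, the cell of high doublet score, with 29.2% of their UMIs. *Kit* was found in all 6, with 4, 6, 8, 9, 9, and 13 UMIs, and in 1 of the 12 with *Cd200r3*, with 3 UMIs. *Myb*, a transcription factor of immature blood cells, had 7 to 25 UMIs in each of the 6. Neither range overlapped 0, whereas *Ccl3* and *Ccl6*, 2 chemokine genes, had 0 UMIs in all 6. *Prtn3*, a neutrophil granule gene that the rule capped, was also higher in the 6, with 116 UMIs in 5 cells against 14 in 2 of the 12 (log2 ratio 2.93), and of the 288 *Mpo* UMIs of the bone marrow members 69 lay in the 12. The part of such granule genes in the other differences was not tested.

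In log2 ratios of the 6 cells to the 12, *Kit* was 3.91, *Sox4*, a further transcription factor of progenitors, 3.21, *Myb* 2.85, and *Cdk6*, a kinase of the cell cycle, 2.33. *Prss34* was -7.98, *Mcpt8* -4.20, and *Fcer1a* -4.42, all lower in the 6 cells. *Prss34* and *Mcpt8* are choosing genes, so their levels are a description. *Ms4a2* (-1.11), *Cpa3* (-0.32), and *Gata2* (-1.34) differed by less than 4-fold. *Mcpt8* lay in 2 of the 6 cells, with 75 and 48 UMIs, and those 2 cells also held 148 and 119 UMIs of *Cpa3*. The other 4 held no *Mcpt8*. Without the deepest cell *Kit* was at 4.12, *Sox4* at 3.34, *Myb* at 2.90, *Cdk6* at 2.46, *Prss34* at -7.86, *Mcpt8* at -3.70, and *Fcer1a* at -3.93.

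As groups, 3 of 6 progenitor genes tested were at least 4-fold higher in the 6 cells and none lower (median log2 ratio 1.84 against -0.12 over all genes), 4 of 4 chemokine genes were at least 4-fold lower (median -4.65), and 4 of 7 basophil markers were lower (median -2.27), among them *Cd200r3*, by whose absence the 6 were grouped. The background was 2.37% of 2236 genes at least 4-fold higher and 6.57% lower. Of 15 adhesion and migration genes, 8 were at least 4-fold lower, among them the chemokine receptors *Ccr1* (-4.76) and *Cxcr2* (-5.82), and *Itga4*, an integrin chain, was higher (2.52). Among the cell cycle genes 0 of 11 passed 4-fold in either direction, and 2 of the 6 cells held 53 and 34 UMIs of *Mki67* and 64 and 65 of *Top2a*, the first of them the deepest cell. Without that cell the progenitor, chemokine, basophil, and adhesion lists had the same counts past 4-fold, against a background of 1.67% higher and 7.38% lower. Since *Cd200r3* belongs to the basophil markers, cells grouped by it had to differ in genes that go with it.

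**Figure D2:**
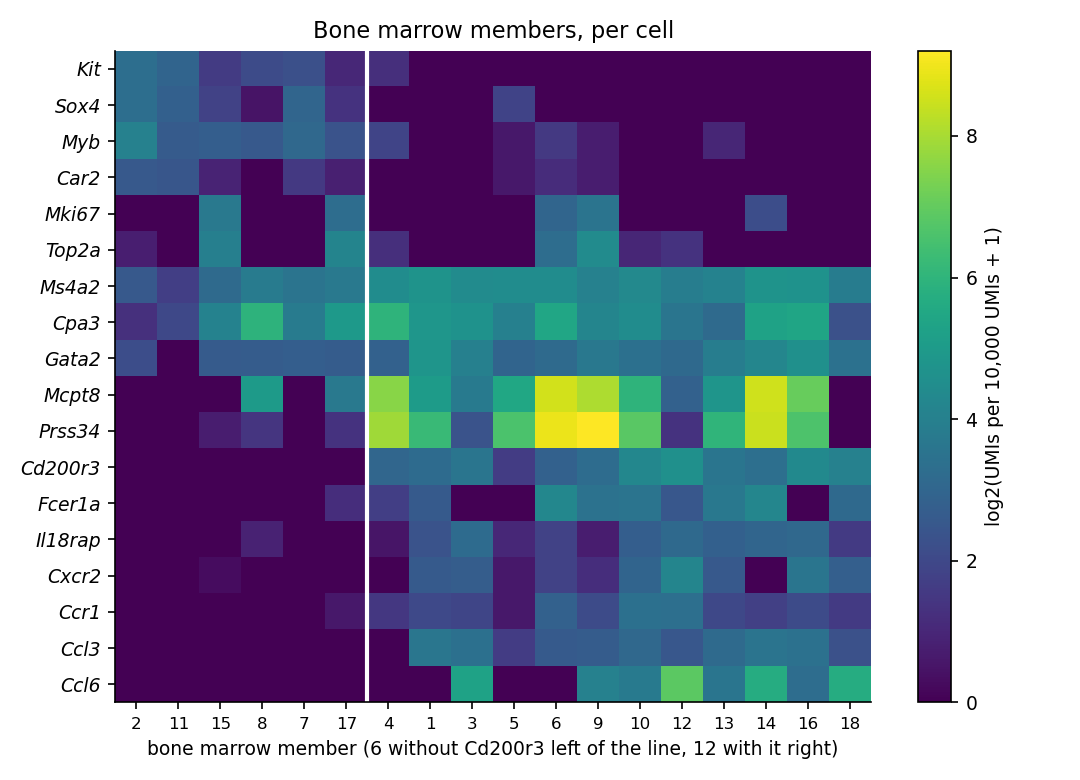
Heatmap of 18 genes (rows) in the 18 bone marrow members (columns), as log2 of UMIs per 10000 UMIs plus 1, with the 6 members without *Cd200r3* on the left and the 12 with it on the right. *Kit* and *Myb* fill the left block, where *Ccl3* and *Ccl6* are at 0, and *Prss34*, *Mcpt8*, and *Ccl6* fill much of the right.

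Blood members held less *Mcpt8* and *Prss34* and more of *Hdc* and of chemokine and immediate early messages than bone marrow members with *Cd200r3*. *Mcpt8* and *Prss34* are among the choosing genes and also set the leaning, and the minimum of 5 UMIs acted on cells of different depth, so their levels are given as a description. *Mcpt8* (chromosome 14, 56082166 to 56085273, minus strand) was at 14997 CPM in bone marrow and 2095 CPM in blood, 7.16-fold lower in blood (log2 ratio -2.84, -2.99 to -2.69), and at a log2 ratio of -1.95 when all basophil-leaning members were counted. *Prss34* was at 21766 and 684 CPM, 31.8-fold lower (-4.99, -5.25 to -4.75). Per 10000 UMIs of a cell, *Prss34* ranged from 0 to 589 with a median of 97.9 in the 12 bone marrow cells, and from 0 to 68.6 with a median of 0 in the 30 blood cells, so the ranges overlapped at their lower end. These 2 were the only ones past 4-fold of 5 granule protease genes tested (median -1.34), and *Cpa3* was at -1.34. The receptor and lineage genes moved less. *Fcer1a* was at 712 and 856 CPM (log2 ratio 0.27, -0.10 to 0.64), *Gata2* at 1194 and 1254 CPM (0.07, -0.22 to 0.36), and *Ms4a2* at 2036 and 1352 CPM (-0.59, -0.83 to -0.35).

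*Hdc*, which encodes the enzyme that makes histamine, was at 561 CPM in bone marrow and 2759 CPM in blood, 4.92-fold higher in blood (log2 ratio 2.30, 1.95 to 2.66). Its per-cell values ran from 1.93 to 18.8 per 10000 UMIs (median 5.57) in bone marrow and from 9.13 to 71.4 (median 26.6) in blood, with some overlap. It was the only 1 of 5 genes of histamine and lipid mediators past 4-fold (median 0.40). *Ccl3*, a chemokine that draws monocytes and other leukocytes, was 7.01-fold higher in blood (554 to 3885 CPM, log2 ratio 2.81, 2.47 to 3.17). The 30 blood cells held *Ccl3* at 14.6 to 101 per 10000 UMIs, all above the highest bone marrow cell at 11.3.

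Of the other chemokine genes, *Ccl4* (log2 ratio 2.46) and *Ccl6* (2.16) were also past 4-fold and *Ccl9* (1.57) was not, which made 3 of 4 chemokine genes tested (median 2.31 against -0.05 over all genes). With every cell weighted equally *Ccl4* (1.90) and *Ccl6* (1.49) were below 4-fold, and *Ccl6* was also below it without the deepest cell of each library (1.88). The background here was 1.76% of 2494 genes at least 4-fold higher in blood and 2.33% lower. *Osm*, the cytokine oncostatin M, rested on 3 UMIs in bone marrow and 67 in blood (3.93, 2.32 to 6.25). The growth factor genes *Hgf* (367 and 733 CPM) and *Csf1* (log2 ratio 0.68) and the cytokine genes *Il4* (1.17) and *Il6* (0.67, -0.09 to 1.49) stayed below 4-fold.

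Immediate early genes are induced within minutes by many stimuli. Of 11 immediate early and heat shock genes tested, 6 were at least 4-fold higher in blood, all of them immediate early, and 0 lower (median 2.14). *Junb* was at 36.0 and 457 CPM (3.67), *Jund* at 2.56, and *Ier2* at 2.49 on the log2 scale. Cell cycle genes were the reverse, with 5 of 8 at least 4-fold lower in blood and 0 higher (median -3.32). *Top2a* had 50 UMIs in 5 of the 12 bone marrow cells and 0 in blood, which makes it at least 24.4-fold lower when its 0 is set to 3 counts for the whole group. *Calr* (-2.93) and *Pdia3* (-2.37), chaperones of the endoplasmic reticulum, were lower in blood as well. *Ctsg*, 322 UMIs in bone marrow and 12 in blood (-5.29), is one of the genes the rule capped. Of 17 genes of IgE receptor signaling, 1 was at least 4-fold higher and 1 lower (median 0.13), and of 20 adhesion and migration genes 0 passed in either direction.

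Pooled over all 33 blood and 18 bone marrow members, 5 of 5 chemokine genes were at least 4-fold higher (background 2.73% of 3701 genes) and 10 of 12 cell cycle genes at least 4-fold lower (background 5.35%). The fifth chemokine gene was *Ccl5*, all 46 of whose UMIs lay in the blood cell with cytotoxic lymphocyte genes, and the pooled bone marrow members include the 6 cells without *Cd200r3*, which held no *Ccl3* or *Ccl6*.

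**Figure D3:**
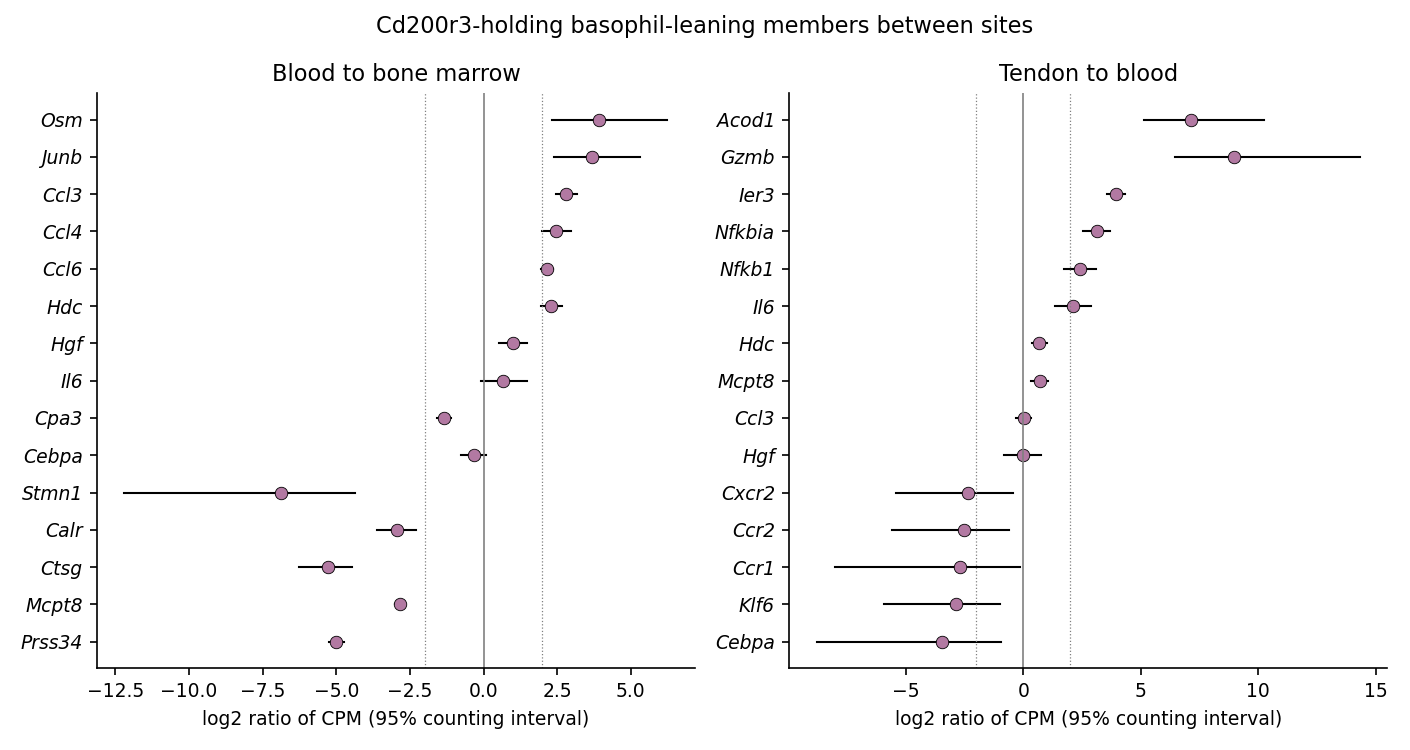
Log2 ratios of CPM with 95% counting intervals for 15 genes each in the basophil-leaning members with *Cd200r3*, blood to bone marrow on the left and tendon to blood on the right, with dotted lines at 4-fold. On the left *Prss34* lies at -4.99 and *Osm* at 3.93, and on the right *Acod1* and *Gzmb* lie at 7.13 and 8.98 with wide intervals.

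The 5 tendon basophil-leaning cells all held *Acod1* and *Gzmb*, and 4 of them held *Il1b*. Of these genes the 30 blood cells held 2, 1, and 0 UMIs. *Acod1* (listed as *Irg1* in the files; chromosome 14, 103046977 to 103056573, plus strand) encodes the enzyme that makes itaconate from an intermediate of the citrate cycle. It had 3, 5, 5, 8, and 9 UMIs in the 5 tendon cells, against 2 UMIs over 30 blood cells and 0 over the 12 bone marrow cells. All 5 tendon cells lay above every blood and bone marrow cell. The level was 1381 CPM in the tendon (932 to 1971) and 9.84 CPM in blood, a log2 ratio of 7.13 (5.15 to 10.2).

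*Acod1* (*Irg1*) was also carried by other cells of the tendon library, so its level there was set beside them. Neutrophils of the tendon, defined by *S100a8* and *S100a9*, held it at 2226 CPM, monocytes and macrophages at 13.8 CPM, and tendon lymphocytes, which should lack it, had 0 UMIs in 26 cells, which allows a share of cells with a UMI of up to 11.5%. With each cell thinned to 1000 UMIs, 3 of 5 tendon basophil-leaning cells (5 of 5 without thinning) and 0 of 26 lymphocytes had an *Irg1* UMI, at median depths of 4298 and 3366.5 UMIs. The 6 mast-leaning tendon cells had 0. The 5 basophil-leaning cells held 1 UMI of *S100a8* and 0 of *S100a9*, which the rule capped, so these counts are a description. Over all 12 neutrophil markers, *S100a8* and *S100a9* included, they held 3 UMIs (138 CPM), with *Cxcr2* the most abundant.

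*Il1b*, which encodes the cytokine IL-1β, had 0, 16, 22, 46, and 74 UMIs in the 5 tendon cells and 0 over 30 blood and 12 bone marrow cells. The tendon level was 7273 CPM (6183 to 8499), at least 493-fold higher than in blood. It lay in 4 of 5 cells, and thinned to 1000 UMIs in 3 of 5 against 1 of 26 tendon lymphocytes (3.85%). *Gzmb* (chromosome 14, 56258838 to 56262260, minus strand), a serine protease gene of the same chromosome region as *Mcpt8*, had 1, 1, 10, 13, and 29 UMIs in the 5 cells and 1 over the 30 blood cells, at 2486 CPM (1867 to 3243) and 4.92 CPM (log2 ratio 8.98, 6.44 to 14.3). In the tendon, neutrophils, monocytes and macrophages, lymphocytes, and the mast-leaning cells had 0 UMIs of *Gzmb*. *Cxcl2* had 102 UMIs, 100 of them in 1 cell, and was present after thinning in 1 of 5 cells and in 4 of 26 lymphocytes (15.4%), so nothing is read from its group level. The cell with those 100 UMIs, which also held 46 UMIs of *Il1b*, 10 of *Il6*, and 5 of *Acod1* (*Irg1*), was the 1 tendon member among the cells with the highest doublet scores. Without it the log2 ratios were 7.32 for *Irg1*, 9.41 for *Gzmb*, and at least 8.90 for *Il1b*.

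**Figure D4:**
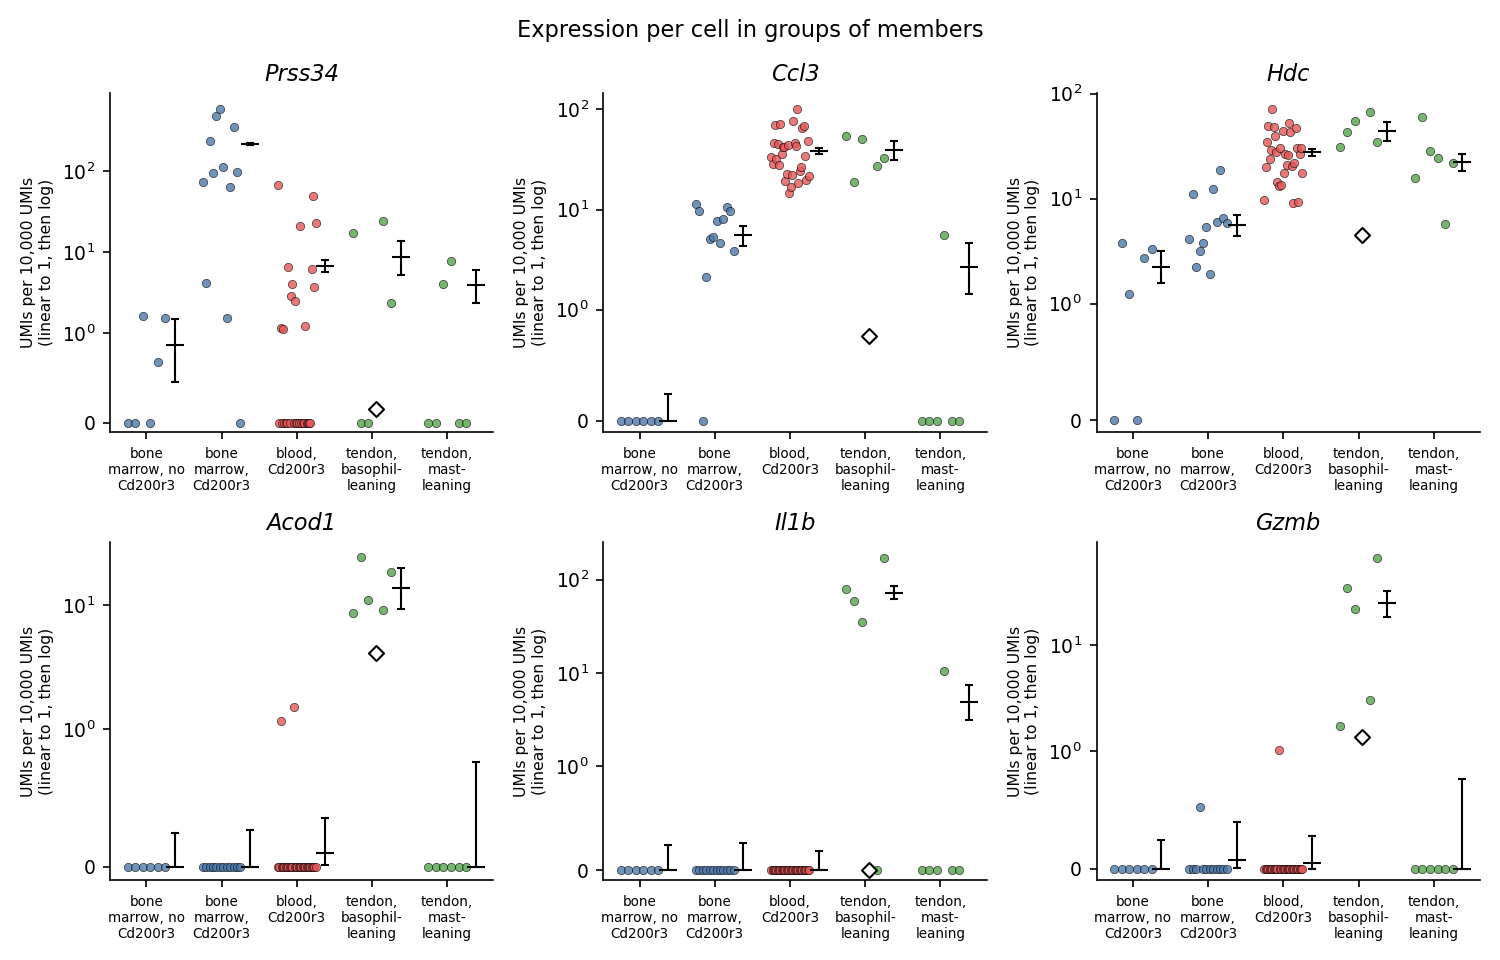
UMIs per 10000 UMIs of *Prss34*, *Ccl3*, *Hdc*, *Acod1*, *Il1b*, and *Gzmb* in each cell of 5 groups of members (vertical axis linear to 1, then log), with a bar for the group value and its 95% Poisson interval and a white diamond for the deepest tendon cell, which the group value leaves out. *Acod1* is above 0 in all 5 tendon basophil-leaning cells, in 2 of 30 blood cells, and in none of the mast-leaning cells.

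*Hdc*, *Ccl3*, and *Ccl4*, which were higher in blood than in bone marrow, differed by less than 4-fold between the 5 tendon cells and blood. *Hdc* had 15, 16, 18, 22, and 25 UMIs and was at 4419 CPM against 2759 in blood (log2 ratio 0.68, 0.35 to 0.99). *Ccl3* was at 3913 and 3885 CPM (0.01, -0.33 to 0.33), *Hgf* at 736.5 and 733 CPM (0.01, -0.84 to 0.75), *Ccl4* at 2808 and 1628 CPM (0.79), and *Ccl6* at 3682 and 7308 CPM (-0.99, -1.33 to -0.66). *Mcpt8* was at 3406 and 2095 CPM (0.70, 0.32 to 1.06). *Il6*, a cytokine of the acute phase, had 0, 0, 5, 8, and 10 UMIs in the tendon cells and was at 1059 against 241 CPM (2.14, 1.35 to 2.88), present in 3 of 5 and 18 of 30 cells. Without the cell of high doublet score its log2 ratio was 1.76, below 4-fold. *Fcer1a* was lower, at 276 against 856 CPM (-1.63, -3.10 to -0.48), but below 4-fold.

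NF-κB is the transcription factor of many inflammatory signals. Of its feedback genes and genes of cell survival, taken as 1 list, 4 of 6 tested were at least 4-fold higher in the tendon and 0 lower (median log2 ratio 2.78 against -0.10 over all genes). The background was 3.22% of 1585 genes at least 4-fold higher and 3.85% lower. *Nfkbia*, which encodes the inhibitor that NF-κB induces, was at 3.12 (2.55 to 3.69), *Nfkbiz* at 4.37 (3.42 to 5.40), *Nfkb1*, a subunit, at 2.43 (1.73 to 3.11), and *Tnfaip3*, a deubiquitinase that ends the signal, at 3.23 (1.81 to 4.65). The first 3 had a UMI in 5 of 5 cells and *Tnfaip3* in 4.

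Among immediate early and heat shock genes 3 of 11 were higher and 2 lower (median 0.49, which is the upper limit of *Klf2*, at 0 UMIs in the tendon): *Ier3* was at 3.93, *Btg2* at 3.35, and the heat shock gene *Hsp90aa1* at 2.07, while *Klf6* was at -2.87 and *Zfp36* at -2.63 on 2 and 1 tendon UMIs. Of the others that were higher in blood than in bone marrow, *Junb* (1.90), *Jund* (1.79), and *Ier2* (-0.32) stayed below 4-fold, and *Egr1* had 2 tendon UMIs. The transcription factor genes *Cebpb* and *Cebpa* moved in opposite directions, at 3.04 (2.50 to 3.57) and -3.47 (-8.79 to -0.96). *Cebpa* had 1 UMI in the tendon cells and 104 in blood. *Hspa5* (3.95), the main chaperone of the endoplasmic reticulum, and *Dnaja1* (3.66), a cochaperone, were among the 10 highest ratios by the rule for named genes. Of 6 interferon-stimulated genes tested, 2 were at least 4-fold higher, *Isg15* (3.23) and *Ifitm2* (2.27), and 0 lower. The list as a whole was not higher, with a median of -0.25 against -0.10 over all genes.

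Of 18 adhesion and migration genes 3 were at least 4-fold lower and 0 higher (median -0.32), namely the chemokine receptors *Ccr1* (-2.68, -8.01 to -0.15), *Ccr2* (-2.50, -5.57 to -0.61), and *Cxcr2* (-2.34, -5.41 to -0.45). They rested on 1, 2, and 2 UMIs in the 5 tendon cells, and the *Ccr1* UMI lay in the cell of high doublet score, without which the log2 ratio is known only as an upper limit of -0.64. *Txnip*, a regulator of glucose uptake, was lower as well (-2.99, -4.44 to -1.86). Basophil markers (0 of 8 past 4-fold, median -1.13), IgE receptor signaling (0 of 13, median -0.68), and glycolysis and hypoxia genes (1 of 11 lower and 0 higher, median -0.58) had medians below that of all genes. These counts, too, changed with the deepest tendon cell.

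The 5 cells held 21725 UMIs in all, and adding the deepest tendon cell changed several of these ratios. With it *Il6* was at 0.46, *Nfkb1* at 0.60, *Nfkbia* at 1.39, *Tnfaip3* at 1.98, and *Cebpb* at 1.88, all below 4-fold. *Ier3* (2.13) and *Nfkbiz* (2.77) stayed past it, while *Btg2*, *Isg15*, and *Ifitm2* did not. *Hdc* (-0.94), *Ccl3* (-1.92), *Ccl4* (-0.97), *Hgf* (-1.76), and *Mcpt8* (-1.22) were then all lower than in blood, and *Fcer1a* (-3.06) and *Ccl6* (-2.68) were past 4-fold lower. Of the lists, 4 of 8 basophil markers, 7 of 13 genes of IgE receptor signaling, and 8 of 18 adhesion and migration genes were then at least 4-fold lower, and 3 of 11 glycolysis and hypoxia genes higher and 2 lower (median 0.83). The NF-κB list had 2 of 8 higher and 1 lower. The background with that cell was 10.2% of 2171 genes higher and 14% lower. The log2 ratios were then 6.05 for *Acod1* (*Irg1*), 7.19 for *Gzmb*, and at least 6.93 for *Il1b*. The deepest cell held 27 UMIs of *Acod1* (*Irg1*), 9 of *Gzmb*, and 0 of *Il1b*.

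The 6 mast-leaning cells carried connective tissue mast cell genes and *Ccl7*, and held less *Ccl6* and *Ccl9* than the 5 basophil-leaning cells. *Cma1* had 79 to 302 UMIs per cell (19600 CPM), *Mcpt4* 48 to 406 (20816 CPM), and *Tpsb2* 16 to 183 (11006 CPM), and these 3 genes, which set the leaning, were at 0 in the 5 basophil-leaning cells. *Cpa3* was at 16797 CPM against 460 CPM (log2 ratio 5.19). *Mcpt9* had 0 UMIs, and the other 11 of 12 mast cell markers had a UMI.

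The following genes took no part in the choice of leaning. *Kit*, on whose signal mast cells depend, had 2, 4, 8, 14, 19, and 23 UMIs in the mast-leaning cells and 0 in the basophil-leaning ones, at least 10.4-fold higher. *Il1rl1*, the receptor for the alarmin IL-33, was at 1546 against 138 CPM (3.48, 1.88 to 5.79). *Tph1*, which encodes the enzyme for serotonin, had 1 to 10 UMIs in each of the 6 and 0 in the others, at least 4.03-fold higher. Both kinds of cell held *Hdc* and *Cyp11a1*. *Hdc* was at 2226 CPM in mast-leaning and 4419 CPM in basophil-leaning cells (-0.99), and *Cyp11a1* at 1216 and 1197 CPM (0.02). The deepest basophil-leaning cell, left out here, held 30 and 16 UMIs of them, at 4.56 and 2.43 per 10000. With it, both levels were lower in basophil-leaning than in mast-leaning cells.

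*Ccl2* and *Ccl7* encode chemokines that recruit monocytes. *Ccl7* had 2, 5, 6, 8, 22, and 42 UMIs in the 6 cells and 1 UMI in 1 of the 5 basophil-leaning cells (1752 and 46.0 CPM, log2 ratio 5.25, 2.73 to 10.6). Thinned to 1000 UMIs it was in 6 of 6 mast-leaning cells and 0 of 26 tendon lymphocytes, at median depths of 5482 and 3366.5 UMIs, and without thinning in 3 of 26 lymphocytes (11.5%). *Ccl2* had 1, 1, 9, 10, 18, and 34 UMIs, at 1505 CPM and at least 10.9-fold higher, but was also in 4 of 26 thinned lymphocytes (15.4%) against 3 of 6 mast-leaning cells. With the deepest basophil-leaning cell included, which held 125 UMIs of *Ccl2* and 54 of *Ccl7*, the log2 ratios were 0.08 and 1.48, both below 4-fold. No difference in *Ccl2* is read from these values, and that in *Ccl7* rests on leaving out the deepest cell.

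In the other direction, *Ccl6* was at 41.2 against 3682 CPM (-6.48), *Ccl9* at 82.4 against 2900 CPM (-5.14), and *Ccl3* at 268 against 3913 CPM (-3.87). With the deepest basophil-leaning cell these log2 ratios were -4.79, -3.49, and -1.94. All 13 *Ccl3*, 24 *Il1b*, 2 *Ccl6*, and 4 *Ccl9* UMIs of the mast-leaning cells lay in the single cell that carried macrophage markers. The same cell held 18 UMIs of the basophil gene *Prss34*. Without that cell *Ccl3*, *Il1b*, *Ccl6*, and *Ccl9* had 0 UMIs in the mast-leaning cells, and *Kit*, *Cpa3*, and *Ccl7* stayed at least 4-fold higher. *Gzmb* and *Acod1* (*Irg1*) had 0 UMIs in all 6. *Alox5ap*, needed for leukotriene synthesis, was lower (-3.34, and -1.60 with the deepest basophil-leaning cell).

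By lists, 7 of 9 mast cell markers tested were at least 4-fold higher in mast-leaning cells and 0 lower (median 3.39 against -0.07 over all genes), and chemokine genes split into 3 higher and 4 lower of 8. The background was 14.1% of 502 genes higher and 9.16% lower. All 7 monocyte and macrophage markers tested were at least 4-fold higher with the cell of 23110 UMIs, and without it 1 had enough UMIs to be tested and was also higher (*Apoe*, log2 ratio 3.73). Of 15 immediate early and heat shock genes tested, 6 were at least 4-fold higher in mast-leaning cells and 2 lower (median 1.23), and 7 did not pass. *Jun* (116 UMIs against 0), *Egr1* (4.62), and *Klf2* (83 UMIs against 0) were higher in mast-leaning cells, and *Ier3* (-3.29) and *Btg2* (-3.82) in basophil-leaning ones. With the deepest basophil-leaning cell, neither of the last pair was past 4-fold, mast cell markers had 8 of 9 higher, and chemokine genes 1 higher and 4 lower of 9 (background 9.67% of 1075 genes higher and 13.5% lower).

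Although few, the members held much of certain messages of their library. The rule chose cells of this kind, so these shares are a description. In blood the 33 members held 837 of 1000 *Ccl3* UMIs (83.7%, 81.3 to 85.9), 363 of 745 *Ccl4* UMIs (48.7%), 54 of 67 *Il6* UMIs (80.6%), 157 of 285 *Hgf* UMIs (55.1%), and 155 of 317 *Csf1* UMIs (48.9%). In bone marrow the shares were 37.2% of *Ccl3*, 41.0% of *Ccl4*, and 23 of 28 *Il6* UMIs (82.1%). In the tendon the members held 1.31% of *Ccl3*, 0.457% of *Il6*, and 0.386% of *Csf1*.

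*Il4*, a cytokine by which basophils act on macrophages, had few UMIs anywhere, and members held 17 of 19 in bone marrow, 36 of 58 in blood, and 9 of 25 in the tendon. *Hdc* was for the most part not a message of these cells: members held 112 of 5881 UMIs in bone marrow, 595 of 3970 in blood, and 234 of 4776 in the tendon, and neutrophils held 94.0%, 81.3%, and 73.0%. Of *Acod1* (*Irg1*) UMIs in the tendon, members held 57 of 6854 (0.832%).

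**Figure D5:**
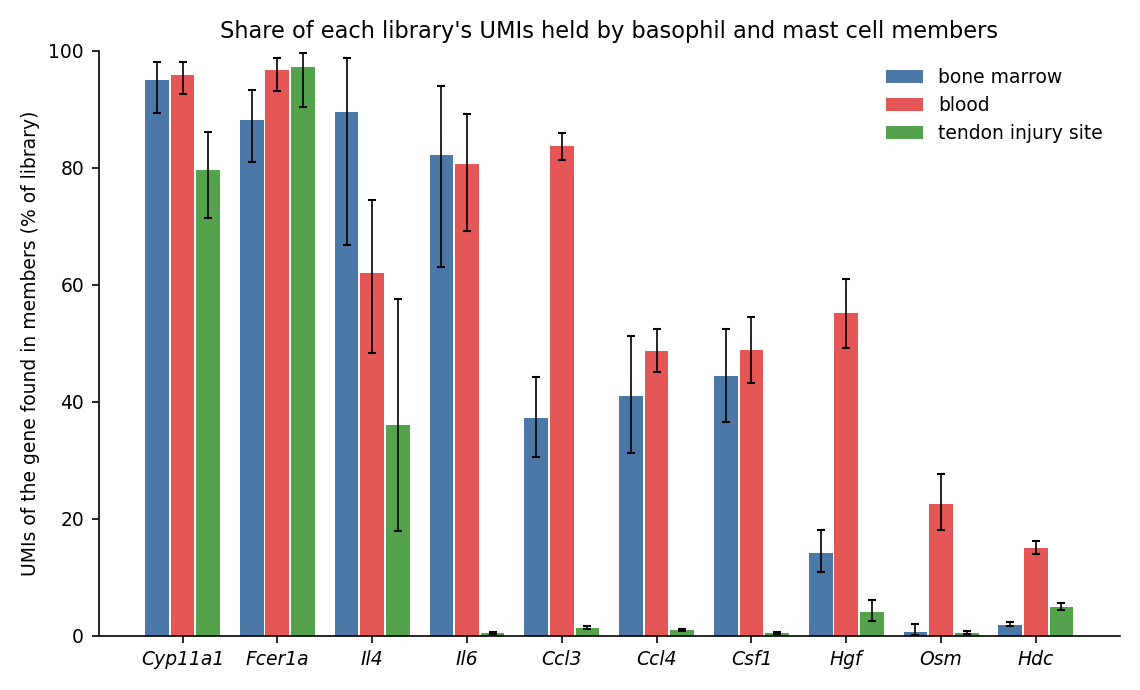
Percent of each library's UMIs of 10 genes that lay in members (bars from 0, with 95% Clopper-Pearson intervals), for bone marrow, blood, and tendon. *Cyp11a1* and *Fcer1a* are high at all 3 sites, *Ccl3* peaks in blood at 83.7%, and *Il6* falls to 0.457% in the tendon.

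Set against all other cells of the same library, 98 of 10925 genes tested (0.897%) were at least 4-fold higher in members in each of the 3 libraries. The leading genes outside the rule were *Cyp11a1* (log2 ratios of 11.64, 11.10, and 11.31 in bone marrow, blood, and tendon), *Fcer1a* (10.30, 11.47, and 14.48), *Cd200r3* (12.20, 9.39, and 10.35), and *Gata2* (9.03, 10.48, and 6.67). *Slc18a2*, the transporter that loads histamine into granules, *Kit*, *Il1rl1*, *Hgf*, *Ccl3*, and *Ccl4* were also among the first 15. Of the lists, 5 of 9 basophil markers, 5 of 21 genes of IgE receptor signaling (*Ms4a2* of the rule among them), 4 of 21 cytokine receptors, and 2 of 7 chemokine genes were past 4-fold at all 3 sites. The receptors were *Csf2rb2* (a β chain of the IL-3 receptor), *Il18r1*, *Il1rl1*, and *Kit*. In blood *Kit* rested on 1 of 33 members, the mast-leaning cell with genes of both kinds, which held all 32 UMIs, and 0 of the 30 basophil-leaning cells with *Cd200r3* had one.

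Pooled over all members, the tendon to bone marrow contrast had 14 of 15 immediate early and heat shock genes at least 4-fold higher in the tendon (median 3.82 against -0.16 over all genes, background 7.08% of 3263 genes) and 10 of 14 cell cycle genes at least 4-fold lower (background 8.52%). In all, 231 genes were higher and 278 lower, and 206 and 397 when every cell was weighted equally. Compared with blood, where the background was 9.98% higher and 10.4% lower (median -0.09), 7 of 9 mast cell markers were higher in the pooled tendon members (median 3.54), and 9 of 19 adhesion and migration genes were lower with 0 higher (median -1.92). The narrower group was the basophil-leaning cells with *Cd200r3*, without the deepest tendon cell. There, tendon to bone marrow had 4 of 7 immediate early and heat shock genes higher and 3 of 7 cell cycle genes lower (median -1.38). The background was 4.78% of 1234 genes higher and 6.32% lower. The pooled values mix the mast-leaning with the basophil-leaning cells and include both tendon cells that stood apart.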

How the data were processed

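The authors deposited whole UMI counts per gene and barcode, 1 matrix per library, from Cell Ranger (version 5.0.1 in the matrix headers) and mm10 in the submitters' processing notes. The counts are not normalized. Libraries were 10x 3′ preparations. Barcodes with at least 200 genes and at most 20% mitochondrial UMIs were kept (1840, 2184, and 4978 cells). Doublets were not removed in the main analysis.

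UMIs were summed over the cells of a group and scaled to CPM. Intervals at 95% were exact Poisson for levels, Clopper-Pearson for shares, and from the exact binomial split for ratios. Genes with at least 20 UMIs over both groups were tested against a 4-fold threshold, and a sum of 0 was set to 3 counts over the group. Cells were not used as replicates, and with 1 library per group no p-value was computed. Shares of cells with a UMI were also computed after thinning each cell to 1000 UMIs. Lymphocytes held at least 5 UMIs and 2 genes of *Cd3d*, *Cd3e*, *Cd3g*, *Cd79a*, and *Cd79b*. Neutrophils held at least 5% of UMIs in *S100a8* and *S100a9*, and monocytes and macrophages at least 2 *Csf1r* UMIs. Lymphocytes and monocytes and macrophages had to be below 5% in *S100a8* and *S100a9*. Lymphocytes were not counted as monocytes and macrophages, and members were in none of these groups.

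Members and gene lists were chosen with earlier results of these data known. The grouping by *Cd200r3* and the 2 tendon cells set apart were chosen after seeing the data. The deepest cell was left out of the *Cd200r3* group. The mast-leaning cell with macrophage markers stayed in the mast-leaning group and was left out only in a check. Named genes are those of the lists and, per contrast, the 10 highest and the 10 lowest log2 ratios among genes with at least 50 UMIs, a UMI in 25% of the cells of the higher group, and no cell with over 50% of that group's UMIs. The 15 genes that led members over other cells in all 3 libraries, each with at least 20 UMIs in members, were named too. The list genes *Gpr44*, *Trbc1*, *Trbc2*, and *Ighm* were not found under these names. Positions are those of GENCODE M21 (GRCm38), matched on the Ensembl identifier. Alternatives changed the cell filter, the rule, doublets, scaling, weighting, and the UMI minimum. The log2 ratios and their intervals were run on simulated Poisson counts, the model that the intervals assume. Those counts hold no spread between cells, so the run cannot speak to ratios carried by single cells. Software was Python 3.11.15 with numpy 2.4.6, scipy 1.17.1, pandas 2.3.3, scanpy 1.11.5, anndata 0.12.19, and matplotlib 3.10.9.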

Additional observations from a re-analysis of the deposited data

How the results depend on the processing

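Among the genes past 4-fold whose log2 ratios were recomputed in the groups formed by leaning and *Cd200r3*, none changed sign. Some genes behind the pooled counts did (such as *Klf2* for tendon to blood, higher over all members and lower in basophil-leaning ones), as did some below 4-fold. The mast-leaning shares (0 of 18, 2 of 33, and 6 of 12) moved by less than their counting intervals, which are wide for so few cells. With at least 3 choosing genes detected, members were 0.121% of the tendon cells in place of 0.241%. At most 2 of the tendon members then left could be mast-leaning. No mast-leaning tendon cell held *Mcpt8*, and 2 held *Prss34*. Counts of genes past 4-fold depended on the minimum of UMIs and on single cells. The 561 genes for tendon to blood became 90 with at least 100 UMIs, 2344 with at least 1, 261 with at least 10 choosing UMIs, 277 without the deepest cell of each library, and 112 in *Cd200r3* basophil-leaning cells. Of the 561, 219 were still past 4-fold in the same direction without the deepest cells and 51 in the *Cd200r3* cells, where 50 changed sign (up to 3 under any other alternative). Of the 509 for tendon to bone marrow, 8 changed sign in the *Cd200r3* cells, 7 with basophil-leaning members only, and up to 5 under any other alternative. The 299 genes for blood to bone marrow became 64, 946, and 102 (102 also with the deepest tendon cell kept), and the 509 for tendon to bone marrow 80, 2258, and 137, with at least 100 UMIs, with at least 1, and in *Cd200r3* cells. The cause of each change was not tested. For the recomputed genes past 4-fold, 560 log2 ratios under alternatives stayed within their counting interval and 82 moved (82 and 14 for 8 genes below 4-fold for tendon to blood), as did 14 and 10 shares of members with a UMI of a choosing gene, and 71 and 13 other shares and counts. With at least 3 choosing genes, which left 6 tendon members, the tendon basophil-leaning cells held 0 UMIs of *Cebpa*, *Klf6*, and *Zfp36*, so their log2 ratios became upper limits of -1.25, -1.42, and -0.03, and *Kit* in mast-leaning cells rested on 10 UMIs (at least 0.81). Leaving out ribosomal protein and mitochondrial UMIs moved the median of all genes for tendon to bone marrow from -0.16 to -0.34. No paired analysis was possible because each site has 1 library. The tendon basophil-leaning group of 5 cells and 21725 UMIs limits ratios that rest on 1 or 2 UMIs.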
